A study of Mus musculus with 12 samples.

Results

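The genes described here are 35 interferon-stimulated genes with roles in antiviral defence, measured in cultured microglia of the mouse, the macrophages that reside in brain tissue. They were taken from a fixed list, which was chosen with earlier results of these data known. A gene was counted as measured where the transcript accession of at least 1 array probe belonged to it in the RefSeq gene table. Probes were found for 34 of the 35 genes, among 19802 genes compared in all, and no probe was matched to Rnf213, a large ubiquitin ligase. All 34 passed the filter on dim probes, Ifi44 only through its Th1 arrays, where it was high. Where a gene had several probes, the brightest of them, by its mean over the 12 arrays, stands for it.

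Microglia were shaken off mixed glial cultures of brains from newborn C57BL/6 mice and treated for 16 h. The untreated group received T cell culture medium, the Th1 group received supernatant of a Th1 helper T cell culture, and the Th17 group received supernatant of a Th17 culture. The Th1 cells had been differentiated from naive CD4+ T cells of the same strain with IL-12 and an antibody against IL-4. How the Th17 cells were made is not given in the sources used here. Each group holds 4 one-colour arrays, 1 from each of experiments 12, 13, 14 and 16, and an array is named by its group and experiment, as in Th17 13. The study describes the 4 experiments as independent. The 10 microglia markers on the arrays were all above background in every group. After Th1 supernatant Cx3cr1, Trem2 and Tmem119 changed by -6.31, -2.50 and -2.29 on the log2 scale. Aif1 and P2ry12 changed by 1.18 and 1.61, and the rest by less than 2-fold. Of 10 astrocyte markers 7 passed the filter, and of the 9 measured T cell markers 5 did. Cd3d, Cd3g, Cd8a and Cd2 were above background on no array, and Cd3e, Cd4, Cd5, Lck and Cd28 on every array. Of 10 oligodendrocyte lineage markers 8 passed, and of 8 perivascular macrophage markers 6 did. In bulk RNA, fewer expressing cells and less transcript per cell cannot be told apart.

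Type I interferons bind the receptor chains Ifnar1 and Ifnar2, and their kinases activate transcription factors, Stat2 and Irf9 among them, that bind the interferon-stimulated response element (ISRE) in the promoters of antiviral genes. Interferon-gamma, the signature cytokine of Th1 cells, binds Ifngr1 and Ifngr2 and acts through the gamma-activated site (GAS) and through Irf1. The proteins made from these genes sense viral RNA, cut or sequester it, deplete the building blocks of viral genomes or hold virus particles at membranes, and many are also made at a low level without infection.

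Promoter sequence is shown for the 7 genes with the largest rises after Th1 supernatant and for Ifit3, because the promoter is where the pathway meets the gene. The sequences are RefSeq promoters of assembly GRCm38.p6, each written 5′ to 3′ on the strand of its gene. Windows of 250 bases before to 50 bases after the annotated start were matched for 27 of the 34 genes and searched on both strands for the ISRE core GAAANNGAAA and the GAS core TTCNNNGAA, where N is any base. Capitals mark the ISRE core on either strand, with 30 bases on each side. Where no core was found, the 100 bases before the start are given without capitals.
Oas3, chr5:120777695-120777764, minus strand, core beginning 75 bases before the start: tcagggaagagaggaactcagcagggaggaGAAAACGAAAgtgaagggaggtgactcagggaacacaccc
Isg15, chr4:156200845-156200926, minus strand, 3 overlapping cores from 78 bases before the start: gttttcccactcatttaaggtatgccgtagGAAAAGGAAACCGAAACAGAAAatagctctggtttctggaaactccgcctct
Ifit1, chr19:34640755-34640843, plus strand, cores from 104 and 85 bases before the start: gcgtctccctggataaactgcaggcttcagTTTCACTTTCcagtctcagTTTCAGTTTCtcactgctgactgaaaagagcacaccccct
Rsad2, chr12:26456533-26456602, minus strand, core from 120 bases before the start: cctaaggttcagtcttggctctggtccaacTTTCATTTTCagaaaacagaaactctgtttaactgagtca
Ifit3, chr19:34583343-34583446, plus strand, cores from 156 and 122 bases before the start: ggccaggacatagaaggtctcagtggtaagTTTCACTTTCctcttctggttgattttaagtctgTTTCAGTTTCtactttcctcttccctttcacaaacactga
Ifit2, first annotated start, chr19:34550594-34550693, plus strand, no core: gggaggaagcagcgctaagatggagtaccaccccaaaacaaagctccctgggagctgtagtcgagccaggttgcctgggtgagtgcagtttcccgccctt
Ifit2, other annotated start, chr19:34550988-34551087, plus strand, no core: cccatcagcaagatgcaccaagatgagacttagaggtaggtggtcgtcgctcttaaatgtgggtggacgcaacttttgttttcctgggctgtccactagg
Oasl1, chr5:114923140-114923239, plus strand, no core: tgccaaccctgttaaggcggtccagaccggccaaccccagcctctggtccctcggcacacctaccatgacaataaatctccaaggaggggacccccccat
Ifi44, chr3:151749911-151750010, minus strand, no core: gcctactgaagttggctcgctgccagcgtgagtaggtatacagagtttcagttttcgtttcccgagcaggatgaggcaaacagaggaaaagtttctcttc

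The ISRE core lay in the windows of 11 of the 27 genes (40.7%), against 1079 of 27025 genes (3.99%) with a promoter in the RefSeq table. The 11 were Ifih1, Ddx58, Ifit1, Ifit3, Oas1a, Oas3, Rsad2, Eif2ak2, Isg15, Bst2 and Ifitm3. The GAS core lay in 9 of the 27 (33.3%), against 9.55% of all genes, and 4 genes held both. The median Th1 change on the log2 scale was 3.33 among the 11 genes with an ISRE core, which ranged from 2.38 to 6.72, and 3.26 among the 16 without, which ranged from 1.87 to 7.59. For the GAS core the median was 2.61 among the 9 genes with it, which ranged from 1.87 to 6.14, and 3.48 among the 18 without, which ranged from 1.96 to 7.59. These are descriptions of the 27 genes, with no test. A match describes these letters and no bound factor, and a window without them says nothing of other sites. Several of the genes are neighbours on the chromosome. Ifit2 adjoins Ifit3, Rsad2 adjoins Cmpk2, Oas2 adjoins Oas3, Oasl2 adjoins Oasl1, and Dtx3l lies between Parp14 and Parp9.

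After Th1 supernatant, transcripts of nearly the whole set stood far above untreated microglia. Of the 34 genes, 33 rose and 0 fell, at an adjusted p under 0.01 with over 2-fold change in limma (the rule for a called gene here and below). Over all genes, 7.49% were called higher in this comparison. The list was chosen with earlier results of these data known, so the shares given here describe it and are no test. The median log2 fold change of the 34 genes was 3.31, against -0.06 over all genes, and the changes ran from 1.87 for Adar, which edits adenosine in double-stranded RNA, to 7.59 for Oasl1, an OAS-like protein. All 4 Th1 arrays lay above all 8 other arrays for 33 of the 34 genes, which held for 15.7% of all genes. The exception in both counts was Ifit3. Within experiments 12, 13, 14 and 16 the median difference was 3.48, 3.23, 2.72 and 3.35, and all 34 genes were higher in each. Within slides 1, 2 and 3 it was 3.43, 2.58 and 3.35, and with slide as a block 3.08, with 33 genes called.

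**Figure D1:**
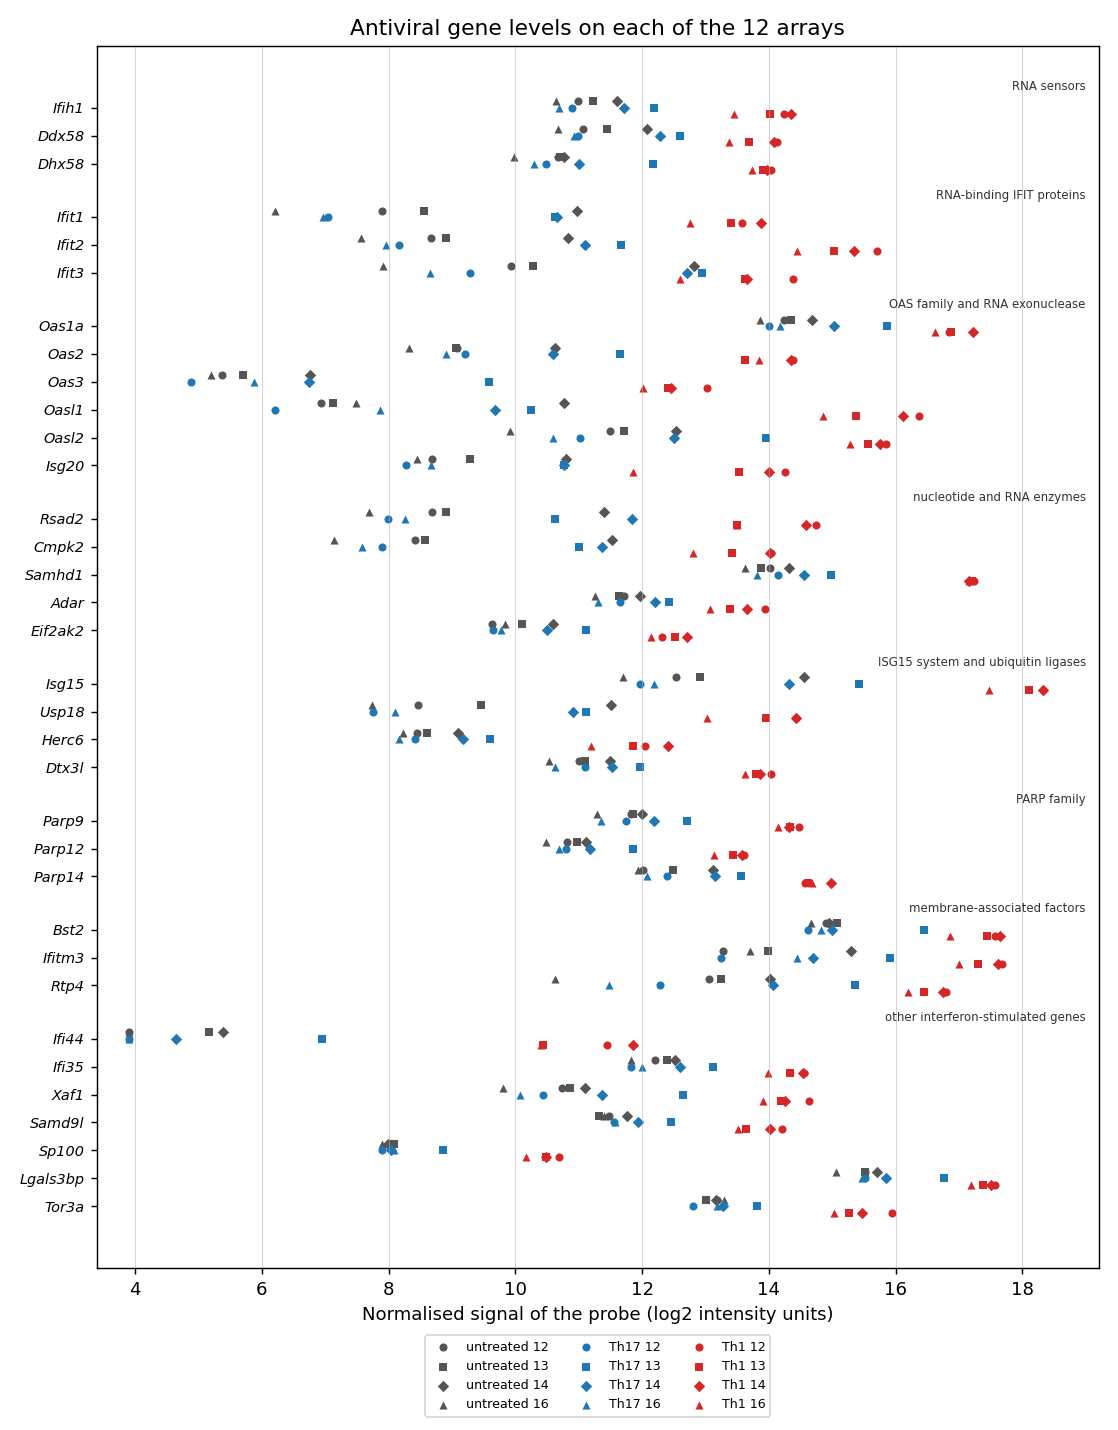
Normalised log2 signal of 34 antiviral genes on each of the 12 arrays, 1 row per gene in role groups, with colour for the group and symbol for the experiment. The Th1 points lie to the right of all others for every gene but Ifit3, and levels of different genes are not comparable because each comes from its own probe.

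The values below are log2 normalised signals of the gene's probe, given in the order of experiments 12, 13, 14 and 16. Within each role group the 2 genes of largest Th1 change are given in full. Each change is a log2 fold change with its SE (±) from limma, with 4 arrays per group.

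The 3 cytosolic RNA sensors all rose, with a median change of 2.90. Dhx58 (LGP2), which modulates the other sensors of its family, lay at 10.67, 10.71, 10.76 and 9.98 in untreated microglia. It lay at 14.04, 13.91, 13.97 and 13.73 after Th1 supernatant and at 10.48, 12.17, 11.01 and 10.29 after Th17 supernatant. The Th1 arrays lay together within 0.31, and in the Th17 group Th17 13 and Th17 14 lay above all untreated arrays, Th17 13 by far the more. Ifih1 (MDA5), which detects long double-stranded RNA, lay at 10.98, 11.22, 11.61 and 10.64 untreated, 14.23, 14.02, 14.35 and 13.45 with Th1 and 10.90, 12.18, 11.71 and 10.69 with Th17. Dhx58 changed by 3.38 ± 0.35 after Th1 (adjusted p = 1.53e-05) and Ifih1 by 2.90 ± 0.33 (adjusted p = 3.68e-05). Ddx58 (RIG-I), which detects RNA with a 5′ triphosphate, rose by 2.50 ± 0.41.

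The IFIT proteins, which bind foreign RNA ends and block its translation, had the widest spread among untreated arrays. Ifit2 lay at 8.66, 8.91, 10.83 and 7.56 untreated, 15.70, 15.02, 15.34 and 14.45 with Th1 and 8.16, 11.67, 11.10 and 7.96 with Th17. Ifit1 lay at 7.90, 8.56, 10.97 and 6.21 untreated, 13.57, 13.40, 13.87 and 12.75 with Th1 and 7.04, 10.62, 10.65 and 6.96 with Th17. For both genes the untreated and Th17 arrays of experiment 14 and Th17 13 stood high, and the arrays of experiments 12 and 16 low, while no Th1 array overlapped them. Ifit2 rose by 6.14 ± 0.88 (adjusted p = 0.000191), or 70.4-fold, and Ifit1 by 4.99 ± 1.06 (adjusted p = 0.00269).

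Ifit3, a partner of Ifit1, is given in full because it was the 1 gene not called, and it was chosen after its values were seen. It lay at 9.93, 10.27, 12.82 and 7.91 untreated, 14.38, 13.63, 13.66 and 12.59 with Th1 and 9.29, 12.94, 12.71 and 8.65 with Th17. Untreated 14, Th17 13 and Th17 14 all exceeded Th1 16, so the groups overlapped. The change was 3.33 ± 1.13 (adjusted p = 0.032), with an adjusted p of 0.00634 and a call when experiment was fitted as a block, and 0.00896 without untreated 14, where the change was 4.20. A near copy, Ifit3b, lies in the same cluster, and signal may be shared between the pair. The probe that stands for Ifit3b, 1 of 2 on the array, changed by 1.68 ± 1.24 (adjusted p = 0.297).

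The OAS enzymes, which make the 2'-5' linked oligoadenylates that activate RNase L, and their relatives held the largest rises. Oasl1, which restrains translation of Irf7 transcript, lay at 6.93, 7.12, 10.77 and 7.49 untreated, 16.36, 15.37, 16.11 and 14.86 with Th1 and 6.21, 10.24, 9.67 and 7.86 with Th17. Untreated 14 was far from the other untreated arrays, and it was nearly level with Th17 13. Oas3 lay at 5.37, 5.70, 6.76 and 5.19 untreated, 13.02, 12.40, 12.46 and 12.01 with Th1 and 4.88, 9.58, 6.74 and 5.88 with Th17. Its untreated arrays spanned 1.57, with untreated 14 the highest, and Th17 13 stood about midway between the untreated and the Th1 arrays on the log2 scale. Oasl1 rose by 7.59 ± 0.97, or 193-fold, and Oas3 by 6.72 ± 0.79, or 105-fold (adjusted p = 7.93e-05 and 4.49e-05). Both folds depend on how background was treated. With another background correction (normexp) they were 6.80 and 4.70 on the log2 scale. All 6 genes of the group rose. Oas2 changed by 4.77 ± 0.60, Oasl2 by 4.20 ± 0.69, the RNA exonuclease Isg20 by 4.10 ± 0.73 and Oas1a by 2.61 ± 0.35. Oas1a shares close sequence with other Oas1 genes of its cluster, so its signal is uncertain as to the copy.

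All 5 enzymes that act on nucleotides or RNA rose. Rsad2 (viperin), which makes a chain-terminating nucleotide from CTP, lay at 8.68, 8.91, 11.39 and 7.69 untreated, 14.75, 13.49, 14.58 and 13.50 with Th1 and 7.99, 10.62, 11.84 and 8.26 with Th17. Cmpk2, its chromosomal neighbour and a mitochondrial nucleotide kinase, lay at 8.42, 8.58, 11.52 and 7.14 untreated, 14.03, 13.42, 14.01 and 12.80 with Th1 and 7.90, 11.01, 11.37 and 7.58 with Th17. The neighbours followed the same order of arrays in the untreated group, with experiment 14 highest and 16 lowest. Rsad2 rose by 4.91 ± 0.92 (adjusted p = 0.00121) and Cmpk2 by 4.65 ± 1.01 (adjusted p = 0.00312). The call of Cmpk2 was lost in each of 5 fits without 1 array, those without untreated 12, 13 or 16 or without Th1 12 or 14, where the adjusted p reached 0.0107. Samhd1, which removes deoxynucleotides, rose by 3.23 ± 0.22, and its 4 Th1 arrays lay within 0.07. Eif2ak2 (PKR), a kinase that stops translation on double-stranded RNA, rose by 2.38 ± 0.31 and Adar by 1.87 ± 0.26.

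Isg15, a ubiquitin-like modifier, lay at 12.53, 12.91, 14.56 and 11.70 untreated, 18.33, 18.10, 18.32 and 17.48 with Th1 and 11.97, 15.42, 14.32 and 12.19 with Th17. Usp18, which removes Isg15 from proteins and dampens signalling at Ifnar2, lay at 8.46, 9.45, 11.51 and 7.73 untreated, 14.42, 13.96, 14.43 and 13.02 with Th1 and 7.75, 11.12, 10.91 and 8.10 with Th17. In both, the untreated arrays spread over more than the Th1 arrays did, by a range of 2.86 against 0.85 for Isg15 and of 3.78 against 1.40 for Usp18. Isg15 rose by 5.14 ± 0.76 (adjusted p = 0.000245) and Usp18 by 4.67 ± 0.92 (adjusted p = 0.00161). Herc6, the ligase that attaches Isg15 in mouse, rose by 3.28 ± 0.34, and its other probe gave 4.49. Dtx3l, a ubiquitin ligase and partner of Parp9, rose by 2.80 ± 0.27. All 4 measured genes of this group were called.

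The 3 PARP family members, which attach ADP-ribose to proteins, rose by 2.59 ± 0.24 (Parp12), 2.58 ± 0.26 (Parp9) and 2.32 ± 0.33 (Parp14). Parp12 lay at 10.81, 10.97, 11.11 and 10.49 untreated, 13.61, 13.43, 13.58 and 13.14 with Th1 and 10.80, 11.85, 11.17 and 10.68 with Th17. Parp9 lay at 11.82, 11.85, 12.00 and 11.28 untreated, 14.47, 14.33, 14.32 and 14.14 with Th1 and 11.74, 12.70, 12.18 and 11.35 with Th17. These genes were steady among untreated arrays, and Th17 13 was the highest of the untreated and Th17 arrays for all 3.

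Of the membrane-associated factors, Rtp4 had the largest rise. This chaperone of membrane receptors, also known for binding RNA at viral replication sites, lay at 13.05, 13.24, 14.01 and 10.63 untreated, 16.79, 16.45, 16.75 and 16.20 with Th1 and 12.28, 15.36, 14.07 and 11.47 with Th17. Ifitm3, which blocks virus entry at endosomes, lay at 13.28, 13.99, 15.29 and 13.70 untreated, 17.68, 17.30, 17.61 and 17.00 with Th1 and 13.24, 15.91, 14.70 and 14.44 with Th17. Rtp4 rose by 3.82 ± 0.84 (adjusted p = 0.00325), a call lost without Th1 12 (adjusted p = 0.0105), and Ifitm3 rose by 3.33 ± 0.52 (adjusted p = 0.000359). Bst2 (tetherin), which tethers budding virus to the cell surface, was already bright on all untreated arrays, between 14.66 and 15.08, and rose by 2.48 ± 0.34.

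The remaining 7 genes all rose, with a median change of 2.35. Ifi44, a cytoplasmic protein with a GTP-binding motif, lay at 3.91, 5.17, 5.38 and 3.91 untreated, 11.45, 10.44, 11.85 and 10.40 with Th1 and 3.91, 6.95, 4.64 and 3.91 with Th17. The value 3.91 is the lower limit set on the signal. The gene was well above background on 2 of 4 untreated and 1 of 4 Th17 arrays, and it entered the test only through its Th1 arrays. Ifi44 rose by 6.44 ± 0.66 (adjusted p = 1.51e-05), which became 5.39 with a higher limit of 50 intensity units and 3.66 with the other background correction. Xaf1, an antagonist of the caspase inhibitor XIAP, lay at 10.73, 10.86, 11.10 and 9.81 untreated, 14.64, 14.19, 14.26 and 13.90 with Th1 and 10.43, 12.64, 11.36 and 10.07 with Th17. It rose by 3.63 ± 0.48, and by 1.98 on its other probe, which was dimmer. Sp100, a scaffold of nuclear bodies, rose by 2.46 ± 0.19, Samd9l, which limits translation, by 2.35 ± 0.22, Tor3a by 2.27 ± 0.22, Ifi35, a partner of Nmi, by 2.12 ± 0.27 and the secreted glycoprotein Lgals3bp by 1.96 ± 0.26.

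**Figure D2:**
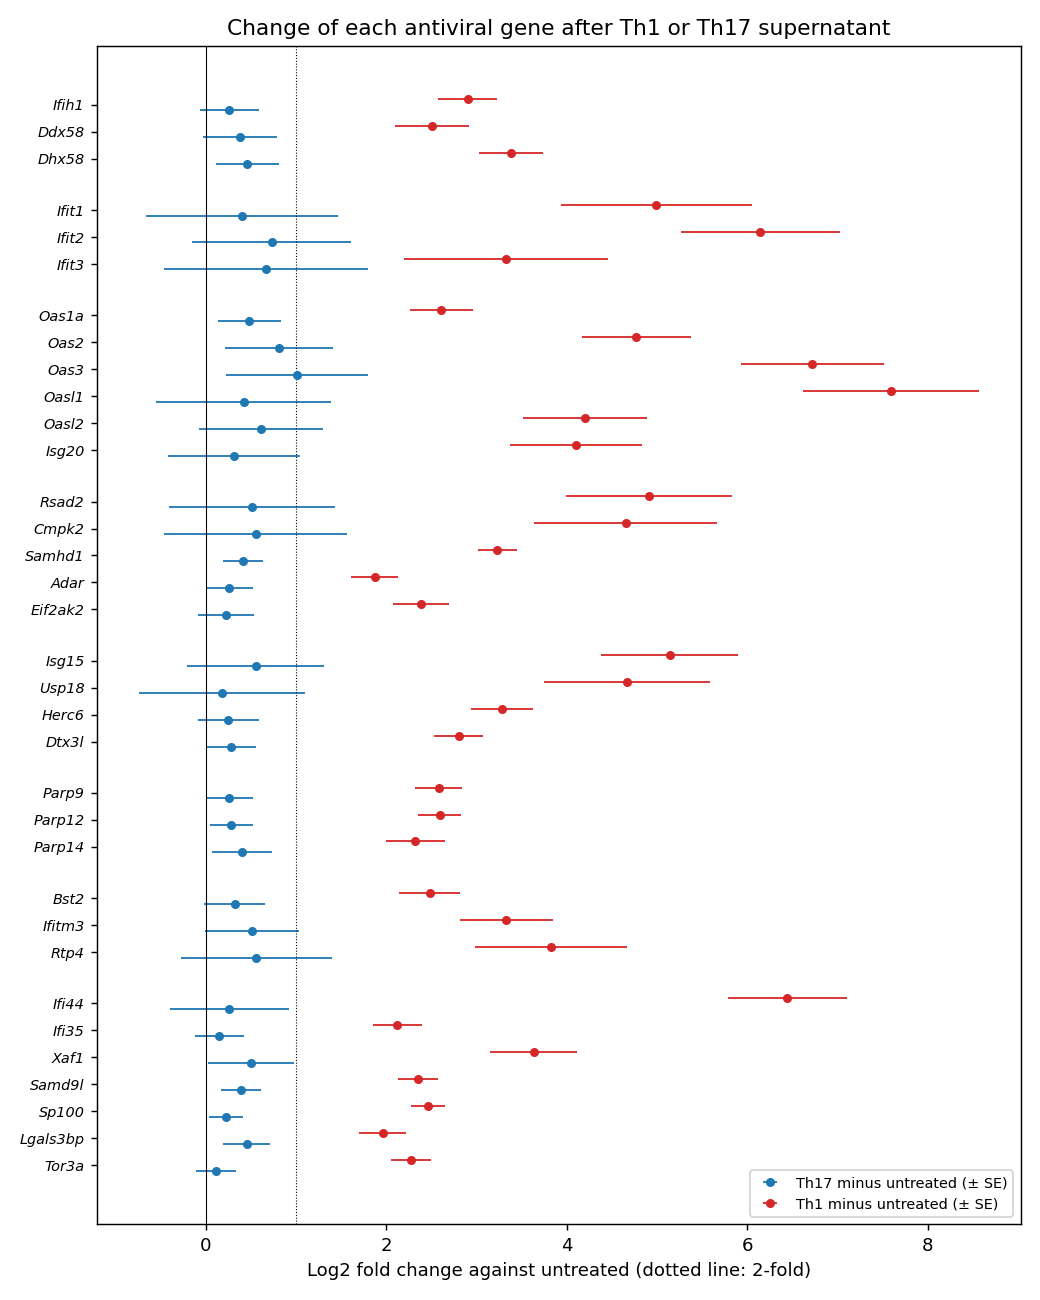
Log2 fold change of each of 34 antiviral genes against untreated microglia after Th1 (red) and Th17 (blue) supernatant, with bars for ± SE of the limma fit on 4 arrays per group. Th1 changes ran from 1.87 to 7.59, and Th17 changes ran from 0.11 to 1.01 with none called.

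The genes differed in how steady they were without treatment. Over the 4 untreated arrays a gene's range on the log2 scale had a median of 1.23, from 0.17 for Sp100 to 4.92 for Ifit3. It exceeded 3 for 8 genes (Ifit1, Ifit2, Ifit3, Oasl1, Rsad2, Cmpk2, Usp18 and Rtp4) and stayed under 1 for 16. The order of arrays was shared. Untreated 14 was the highest untreated array for 31 of the 34 genes, against 29.3% of all genes, and the exceptions were Bst2, Sp100 and Tor3a. Untreated 16 was the lowest for 28 of the 34, against 28.9% of all genes. Relative to the mean of the untreated group, the median of the 34 genes was -0.14, 0.07, 0.64 and -0.53 on untreated 12, 13, 14 and 16. For the IFIT genes the same values were -0.33, 0.04, 2.56 and -2.20, and for the PARP genes -0.03, 0.12, 0.26 and -0.45.

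Th17 14 stood with untreated 14, at a median of 0.69 above the untreated mean, and Th17 16 with untreated 16, at -0.38. After Th1 supernatant the arrays lay closer together, with a median range of 0.75 and no gene over 3. The untreated range exceeded the Th1 range for 27 of the 34 genes, against 52.9% of all genes. Across the 34 genes, the untreated range and the Th1 change had a Pearson r of 0.64 and a Spearman rho of 0.78. This describes genes, which are not independent replicates, and both quantities use the untreated arrays.

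Some astrocyte markers and Ifnb1 also stood high on untreated 14. Of the 7 astrocyte markers that passed the filter, 5 (Gfap, Aqp4, Slc1a3, Fabp7 and S100b) were highest on untreated 14 within the untreated group. The mean log2 level of all 7 was 8.69 there, against 7.44, 7.17 and 7.69 on untreated 12, 13 and 16. Gfap, the astrocyte filament protein, lay at 4.30, 4.25, 7.17 and 3.99. The other 2 markers went another way. Aldh1l1 lay at 11.07, 10.16, 9.59 and 11.32, lowest on untreated 14, and Aldoc at 11.57, 10.89, 11.61 and 12.95, highest on untreated 16. The summed level of the 7 markers on the log2 scale ran from 12.27 to 13.55 over untreated arrays, 12.01 to 13.54 over Th17 arrays and 12.03 to 12.50 over Th1 arrays. Its highest untreated value was on untreated 16, not on untreated 14. The sum is led by the brightest markers, and on untreated 16 the brightest was Aldoc, at 12.95. Slc1a2 was above background on no untreated array. Ifnb1, which encodes interferon-beta, was above background on 1 untreated array, untreated 14, where it lay at 5.93. Th17 14, which was as high in the antiviral genes, held Ifnb1 at 3.93. The part of the astrocyte markers and of Ifnb1 in the antiviral levels was not tested.

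**Figure D3:**
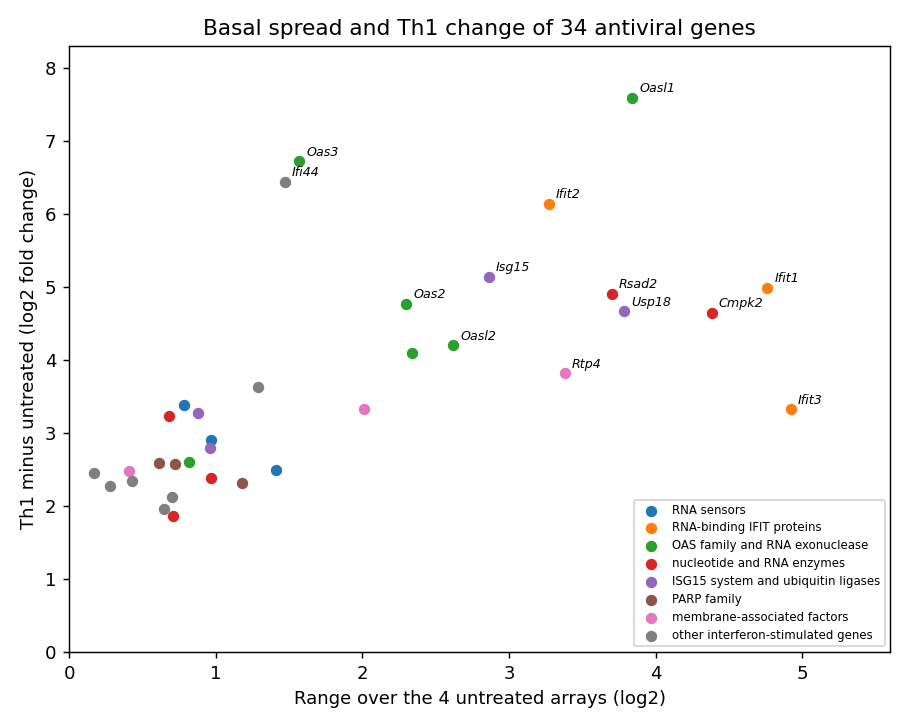
Range of each gene over the 4 untreated arrays (horizontal axis, log2) against its Th1 minus untreated change (vertical axis, log2), with 1 point per gene and colour for the role group. Ifit3 has the widest range at 4.92 with a change of 3.33, while Oas3 and Ifi44 combine ranges of 1.57 and 1.47 with changes of 6.72 and 6.44.

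After Th17 supernatant no gene of the set was called in limma. An unadjusted p under 0.05 was reached by 0 of the 34 and by 325 of 19802 genes (1.64%). Of all genes, 0.0% were called higher. The fitted change was above 0 for all 34 genes, with a median of 0.40 and a range from 0.11 for Tor3a to 1.01 for Oas3, and every adjusted p was 1.0. The 95% intervals of the change were wide for the genes with unsteady basal levels, from -1.20 to 2.67 for Ifit2 and from -0.73 to 2.75 for Oas3. They were narrower for Parp12, from -0.24 to 0.80, and for Tor3a, from -0.38 to 0.59. The fit had no term for experiment, so the intervals include the spread between experiments. Intervals of this width leave rises of several fold possible for the first kind of gene.

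The shared sign of the Th17 changes depended on single arrays, and on Th17 13 the most. Within experiments 12, 13, 14 and 16 the median difference between the Th17 and untreated arrays was -0.22, 1.47, 0.06 and 0.26, and 7, 34, 21 and 30 of the 34 genes were higher. Without Th17 13 the median change over the group was 0.01, and 15 of the 34 genes were below 0. The same count was 5 without Th17 14, 5 without untreated 16, 1 without untreated 12 and 0 without any other array. The median was 0.15 without untreated 16, 0.27 without Th17 14, 0.62 without Th17 12 and 0.63 without Th17 16 or untreated 14. Within slides 1, 2 and 3 the median was -0.33, 0.66 and 0.71, and with slide as a block 0.43. Slide 2 holds Th17 13 with untreated 14, and slide 3 holds Th17 14 and 16 with untreated 16.

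**Figure D4:**
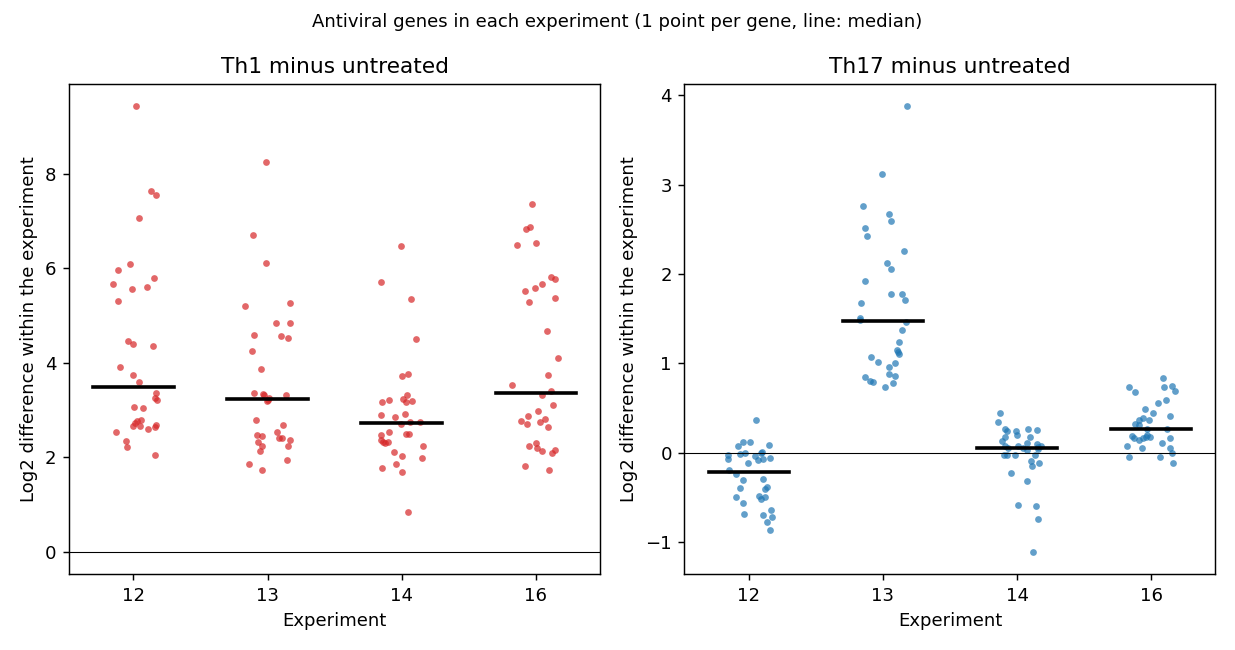
Difference between the treated and the untreated array within each experiment for 34 antiviral genes, Th1 on the left and Th17 on the right (vertical axes, log2, on different scales), with 1 point per gene and a line at the median. The Th1 medians lie between 2.72 and 3.48, and the Th17 median is 1.47 in experiment 13 and between -0.22 and 0.26 in the others.

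Th17 13 was therefore looked at on its own, as a description of 1 array with no test. It lay above the 7 other untreated and Th17 arrays for 28 of the 34 genes, against 16.9% of all genes. The other 6 were Ifit1, Oasl1, Isg20, Rsad2, Cmpk2 and Usp18, for which untreated 14 or Th17 14 was as high or higher. Set against the mean of the other Th17 arrays, its median difference was 1.50 over the 34 genes and 0.00 over all genes. The differences were all above 0, from 0.71 to 3.75. Against untreated 13, the array of the same experiment, 26 of the 34 genes were over 2-fold higher, against 2.34% of all genes. On Th17 14 against untreated 14 the same count was 0 of 34, against 1.69% of all genes.

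The raised levels on Th17 13 stayed below those after Th1 supernatant. The array lay below every Th1 array for 33 of the 34 genes, and the exception was Ifit3. Against the mean of the untreated arrays, Oas3 was 14.1-fold higher, Ifit3 6.53-fold, Ifit2 6.40-fold, Rtp4 6.18-fold and Oasl2 5.88-fold. At the other end, Tor3a was 1.57-fold and Adar 1.73-fold higher. Across the 34 genes, the difference between Th17 13 and the other Th17 arrays had a Pearson r of 0.79 and a Spearman rho of 0.80 with the Th1 change. These 2 differences share no array, and the points are genes of 1 pathway measured on the same arrays.

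Th17 13 also had the brightest raw signal. Its 75th percentile before scaling was the highest of the 12 arrays, at 2214.49 intensity units in a range from 1199.55. After scaling to the 75th percentile alone, 28 genes still lay above the other 7 arrays. The median difference from the other Th17 arrays was then 1.49. The deposited value table gave the same values, but it holds the same scaling and is no separate check. With a limit of 50 intensity units the count was 28 and the median 1.38, and with the normexp correction 28 and 1.24. None of the 7 astrocyte markers was highest on Th17 13 within the Th17 group. Ifnb1 was highest there of the Th17 arrays and above background on no other of them, at 4.63 against 3.91 to 3.93, and below the 5.93 of untreated 14. Interferon-gamma transcript (Ifng) was above background on no array. Whether brightness had a part in the difference was not tested beyond these settings. The part of Ifnb1 was not tested.

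**Figure D5:**
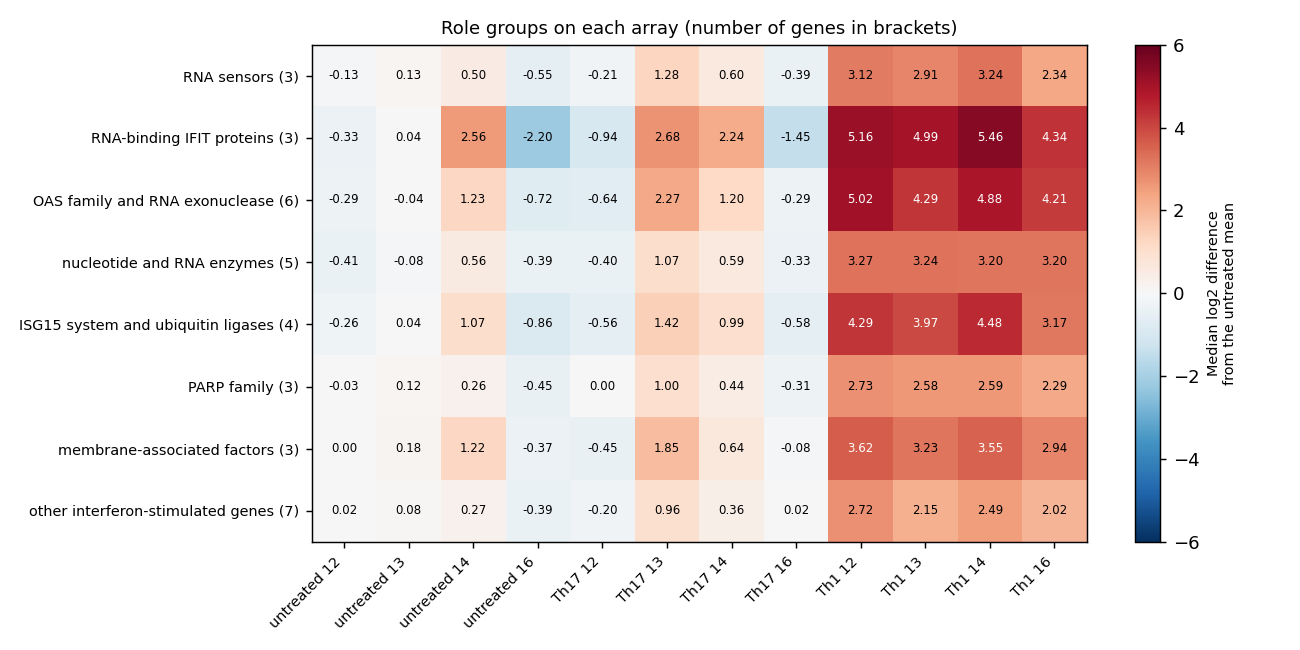
Median difference of each role group from the mean of the untreated arrays (log2, colour and number) on each of the 12 arrays, with the number of genes in brackets. The IFIT group spans -2.20 on untreated 16 to 2.56 on untreated 14, Th17 13 is at 0.96 or higher in every group, and the Th1 arrays lie between 2.02 and 5.46.

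Between the Th1 and Th17 groups, 33 of the 34 genes were called higher after Th1 and 0 lower, against 6.89% of all genes called higher. The median change was 2.82, from 1.51 for Lgals3bp to 7.18 for Oasl1, and Ifit3 was again not called (2.67 ± 1.13, adjusted p = 0.077). Within experiments 12, 13, 14 and 16 the median difference was 3.59, 1.63, 2.65 and 3.11. Within slides 1, 2 and 3 it was 3.59, 1.68 and 2.48. With slide as a block 31 genes were called, and those lost were Cmpk2 and Rtp4. The adjusted p rose to between 0.01 and 0.03 in 8 of the 12 fits without 1 array for Cmpk2, in 9 for Rtp4 and in 5 for Ifit1. The changes in the 12 fits stayed between 3.47 and 4.73 for Cmpk2, 2.65 and 3.94 for Rtp4 and 3.97 and 5.19 for Ifit1, so these calls lie near the threshold. This comparison shares the Th1 arrays with the first.

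The other genes of the pathway, 76 in a list of ligands, receptors, signal carriers, inhibitors and further interferon-stimulated genes, were read in the same fit. Of the 63 that passed the filter, 37 rose and 2 fell after Th1 supernatant, and 0 were called after Th17 supernatant. Among the ligands, Ifnb1 was called. It lay at 3.91, 3.91, 5.93 and 3.91 untreated, at 7.14, 6.64, 8.75 and 5.39 with Th1 and at 3.91, 4.63, 3.93 and 3.91 with Th17, a change of 2.57 ± 0.64 after Th1 (adjusted p = 0.00709). It was above background on 1 of 4 arrays in the untreated and in the Th17 group, so that its change depends on the lower limit. Ifnb1 passed the filter only through its Th1 arrays. Transcripts of the other ligands that passed, Ifna1, Ifna2, Ifna5, Ifna12 and Ifnl3, had changes between 0.43 and 0.67 and were not called.

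Of the receptors, Ifnar1 fell by 1.23 ± 0.31 (adjusted p = 0.00776) and Ifngr1 fell by 1.09 ± 0.20 (adjusted p = 0.001), while Ifnar2 and Ifngr2, at 0.18 and 0.09, were not called. Ifnar1 lay at 13.28, 13.55, 13.43 and 13.53 untreated and at 11.04, 12.43, 12.65 and 12.78 with Th1, where Th1 12 was the lowest. Among kinases and transcription factors, rises were found in Irf7, which drives later interferon production (5.81 ± 0.78), Irf1 (4.34 ± 0.25), Stat2 (3.23 ± 0.34), Jak2 (1.48 ± 0.20) and Tyk2 (1.19 ± 0.12). Irf9, which binds DNA at the ISRE, had a change of 0.61 ± 0.23 (adjusted p = 0.0448) and was not called, nor were Jak1 and Irf3.

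Irf7 lay at 8.67, 9.14, 10.27 and 7.49 untreated and at 8.07, 11.71, 10.34 and 8.42 with Th17, with the same high and low arrays as the IFIT genes. Irf1 lay at 13.56, 12.57, 12.92 and 13.16 untreated, so that untreated 14 was not its highest array, and at 13.34, 14.38, 13.86 and 13.35 with Th17. Of the inhibitors, Socs1 rose by 8.09 ± 0.41 and Socs3 by 5.50 ± 0.36, while Ptpn6 (0.78 ± 0.19) and Pias1 (-0.17 ± 0.18) were not called. Socs1 lay at 7.66, 7.21, 8.88 and 7.08 untreated and at 7.99, 8.87, 8.34 and 7.41 with Th17. Th17 13 was thus its highest Th17 array, above untreated 13 and level with untreated 14. Of 8 sensing adaptors and receptors 3 rose. Of 32 further interferon-stimulated genes that passed the filter, 25 rose and 0 fell, and the largest called changes were in Tnfsf10 (7.77 ± 0.70), Phf11b (5.02 ± 0.43), Phf11a (4.60 ± 0.42), Ifitm1 (4.12 ± 0.66) and Phf11d (3.96 ± 0.42). Tnfsf10 was above background on 1 of 4 untreated and 2 of 4 Th17 arrays, so that it passed the filter only through its Th1 arrays.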

How the data were processed

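Total RNA labelled with Cy3 was hybridised to Agilent whole mouse genome arrays. Per the file headers, the scanner images were quantified in Feature Extraction 10.7.3.1. The files deposited per array hold background-subtracted spot intensity on a linear scale, and a deposited value table holds log2 values that matched the scanner signal scaled to the 75th percentile and centred per probe. It served as an alternative.

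Control spots were left out, and so were 103 to 230 outlier or manually flagged spots per array. Spots were averaged by geometric mean, quantile normalised, brought to 1500 at the 75th percentile, raised to 15 if below it and converted to log2, after the study's methods. Probes well above background on at least 4 of 12 arrays were kept (24287 probes, 19802 genes, 54.49% to 64.99% of probes above background per array). The number of arrays limits the precision. Names came from RefSeq accessions (69.07% of probes, 13953 of the 19802 genes), and the rest were counted by accession.

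The 3 groups were fitted together in limma 3.58.1 (R 4.3.3) over all 12 arrays, tested on simulated data, with Benjamini-Hochberg adjustment over all genes. A gene was called at an adjusted p under 0.01 and over 2-fold. Arrays of equal experiment number belong together, since deviations from group means correlated at 0.244 to 0.634 in all 12 such pairs. They correlated at -0.422 to 0.123 in the other 36. The main fit had no term for experiment, so its SEs and intervals include the spread between experiments. Experiment as a block was an alternative, in which the SE of Ifit3 after Th1 was 0.77, against 1.13 in the main fit. The 35 genes and all lists were chosen with earlier results of these data known. Within role groups, the 2 genes of largest Th1 change were given in full. The alternatives were other scalings, background corrections, limits, filters, blocks, probes and samples.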

Additional observations from a re-analysis of the deposited data

Results flagged for a closer look

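In 102 groups of 4 arrays (34 genes in 3 groups), 2 held an array whose gap to its nearest neighbour took up more of the group's range than Dixon's 95% limit allows, and chance alone marks about 1 in 20 groups. Dhx58 lay at 9.98 on untreated 16, below the others, which lay between 10.67 and 10.76. Oasl1 lay at 10.77 on untreated 14, above the others, of which the highest was 7.49. Experiments 14 and 16 are the ones that stood high and low for most of the antiviral genes.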

How the results depend on the processing

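Under every alternative 0 genes were called after Th17 supernatant and 0 fell after Th1 supernatant. The number called higher after Th1 was 33 and ranged from 31 to 34 with each array left out in turn. It was 30 without the filter on dim probes, where Ifit1, Cmpk2 and Rtp4 were lost, and 34 with experiment as a block. The replicate block added Ifit3 in that comparison and changed no other call, and an adjusted p under 0.05 as the threshold also gave 34. Against Th17 the count ranged from 30 to 33 with an array left out and was 29 without the filter and 31 with a limit of 50. The median change stayed between 3.12 and 3.45 for Th1, 0.01 and 0.63 for Th17, and 2.61 and 3.28 between them with an array left out. After Th17, 15 of all 34 genes were below 0 without Th17 13. Among the genes given in full, the sign depended on single arrays for 10. Over the 12 fits without an array the change ran from -0.33 to 1.26 for Ifit1, -0.11 to 1.53 for Ifit3, -0.36 to 0.93 for Usp18, -0.09 to 1.42 for Cmpk2, -0.21 to 1.25 for Rsad2, -0.14 to 1.17 for Rtp4, -0.16 to 1.31 for Oasl1, -0.10 to 1.10 for Isg15, -0.44 to 0.57 for Ifi44 and -0.01 to 0.49 for Ifih1. The normexp correction, chosen after seeing the data on the median signal columns because the planned mean columns were absent, lowered Th1 changes by over 1.5-fold for Ifi44, Oas3, Ifit1 (to 4.17), Oasl1 and Cmpk2 (to 4.01). The mean over probes gave 2.80 for Xaf1 and 3.88 for Herc6.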
